A study of Mus musculus with 6 samples.

Results

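The miR-26 family was followed in the retina of mice with experimental autoimmune uveoretinitis (EAU), a model of human autoimmune uveitis in which T cells attack the retina. Its members were taken by name: every array spot whose name held mmu-miR-26a or mmu-miR-26b. This gave 2 probes, each printed as 4 spots, among 597 probes naming a mouse miRNA. Both probes carry the human and rat names as well. The groups were retinal cells of naive B10.RⅢ mice (n = 3) and of B10.RⅢ mice developing EAU on day 14 (n = 3), all aged 8 weeks. The labels name no antigen, adjuvant or allele and do not say how many mice a sample holds, so p-values measure the spread between samples. From each sample, 800 ng of total RNA was labelled with Hy3 and hybridised to a locked nucleic acid array together with a Hy5-labelled pool of all samples. Values are log2(Hy3/Hy5) of a probe, so a negative difference means less of the miRNA in EAU relative to the shared pool.

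MiR-26 is a vertebrate miRNA family that is abundant in many differentiated tissues, the nervous system included. Its genes lie inside the Ctdsp genes, which encode small phosphatases that act on RNA polymerase II and work with the repressor REST to silence neuronal genes outside neurons. MiRNA and host are known to be made together, and miR-26 can repress its own hosts. EZH2, the methyltransferase of the Polycomb complex, is among its best known targets.

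The mature sequences are shown because the family is defined by its shared seed and because the members differ only at bases outside it. Whether the 2 probes tell the members apart was not tested. The seed, bases 2 to 8 from the 5′ end, is in capitals. Both members and the 3′ arm of the Mir26b hairpin, called miR-26b* on the array, were matched by name in RefSeq (GRCm38.p6).
miR-26a (5′ arm): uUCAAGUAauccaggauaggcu
miR-26b (5′ arm): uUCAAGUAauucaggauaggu
miR-26b* (3′ arm): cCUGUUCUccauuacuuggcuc
MiR-26a and miR-26b were identical at 19 of the 21 positions they share. Counted from the 5′ end, with the base of miR-26a first, the substitutions were C11U and C21U. Among 1679 mature mouse names in the table, only these 2 carried the seed. The 6 bases from position 2 to 7 were also found in miR-6371.

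The hairpins are shown because miR-26a is made from more than one gene, which its single probe cannot tell apart. The mature 5′ arm is in capitals, and every hairpin is on the plus strand of GRCm38.p6.
Mir26a-1 (chr9:119031796-119031885): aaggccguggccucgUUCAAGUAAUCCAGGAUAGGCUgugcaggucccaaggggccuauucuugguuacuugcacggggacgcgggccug
Mir26a-2 (chr10:126995530-126995613): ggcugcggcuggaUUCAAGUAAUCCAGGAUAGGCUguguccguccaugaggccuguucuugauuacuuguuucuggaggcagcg
Mir26b (chr1:74394310-74394394): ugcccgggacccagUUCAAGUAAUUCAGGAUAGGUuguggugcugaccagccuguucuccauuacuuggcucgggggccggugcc
Mir26a-1 lies within Ctdspl, 105260 bases from the start of that gene. Mir26a-2 lies within Ctdsp2, 16813 bases from its start, and Mir26b within Ctdsp1, 2701 bases from its start. The table used gives gene spans and not exons, so intron or exon is not stated here. The miR-26a mature sequence is the same at both of its loci, and a value of the miR-26a probe is therefore a sum over Mir26a-1 and Mir26a-2.

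The arrays were dim, and a blank level was set on each from 144 blank and negative-control spots (the median plus 3 median absolute deviations). It lay between 73.9 and 127 in the sample channel and between 38.6 and 46.0 in the reference channel. Between 211 and 279 of the 597 mouse probes were above it per array. Scan day separated the arrays exactly as the groups did, and the effects of day and disease cannot be told apart. EAU replicate 3 was dimmest in the reference channel, where its brightest percent of spots began at 202, against 503 to 1009 on the other 5 arrays. In a bulk sample, fewer cells of a type and less RNA per cell cannot be told apart.

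In the sample channel, both miR-26 probes were well lit in the naive retina. The mean signal of the 4 miR-26a spots was 632, 682 and 530 in naive replicates 1 to 3 and 333, 541 and 139 in EAU replicates 1 to 3. EAU replicate 2 thus reached the lowest naive sample, and the other EAU samples lay well under it. For miR-26b the signal was 1193, 1132 and 965 in naive and 713, 1358 and 287 in EAU. Here EAU replicate 2 was the brightest of all 6 arrays, so the unscaled signals of the groups overlapped. That array was also the brightest as a whole, with a median spot of 94.8 against 56.2 to 74.2 on the others. As group means, the signal of miR-26a was 615 ± 77.1 in naive and 337 ± 201 in EAU, and that of miR-26b 1097 ± 118 and 786 ± 539 (mean ± SD, n = 3 each). All spots of miR-26b were above the blanks on all 6 arrays, as were those of miR-26a except 1 spot on EAU replicate 3.

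The shared pool gave much weaker signals at the same probes, and these moved with the arrays. At miR-26a the reference signal was 70.1, 94.3 and 62.1 on the naive arrays and 49.0, 69.0 and 40.1 on the EAU arrays. On EAU replicate 3 it was 0.971 times the blank level. At miR-26b the reference signal was 117, 167 and 91.0 on the naive arrays and 78.7, 161 and 49.8 on the EAU arrays. The same pool was thus read as dimmer, on average, beside EAU samples: 52.7 ± 14.8 against 75.5 ± 16.8 for miR-26a, and 96.5 ± 57.7 against 125 ± 38.8 for miR-26b (mean ± SD, n = 3 each). The part of this in the ratios was not tested.

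**Figure D1:**
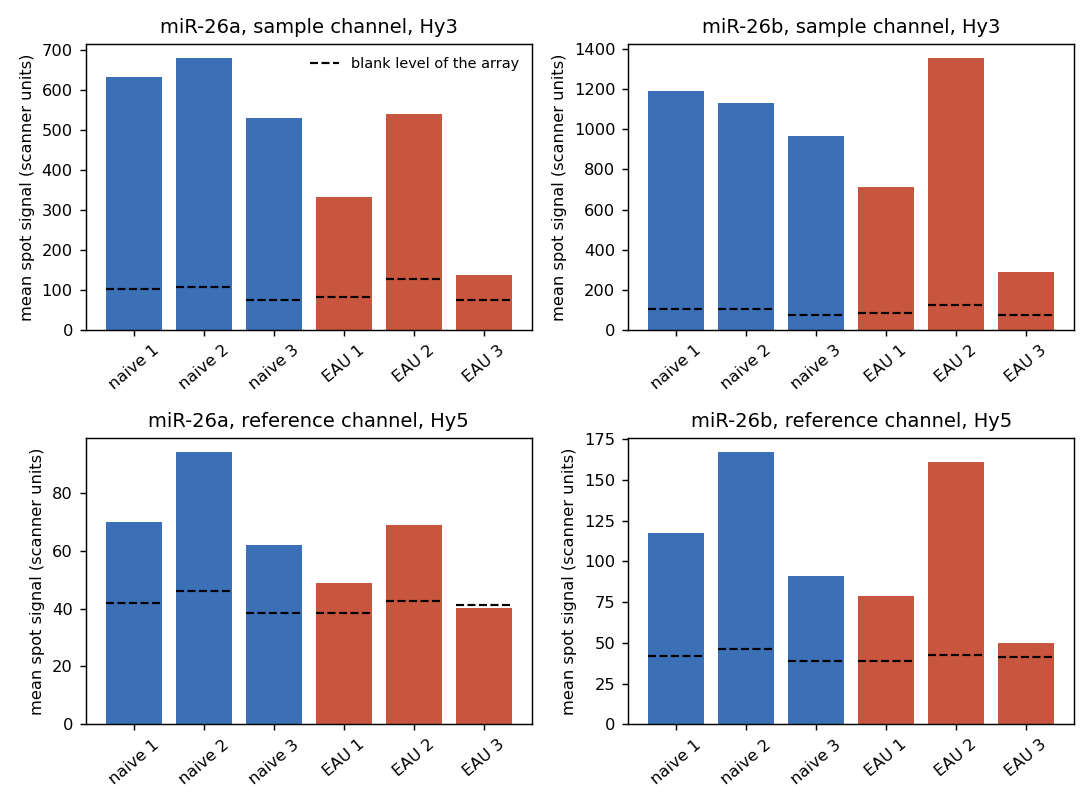
Mean signal of the 4 spots (scanner units) of miR-26a and miR-26b on each array, in the sample channel (Hy3, top) and the reference channel (Hy5, bottom); dashed lines mark the blank level of each array. MiR-26b reached 1358 on EAU replicate 2 and 287 on EAU replicate 3, while the reference signal of miR-26a on EAU replicate 3 was 40.1, at the blank level.

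The ratio of sample to pool was lower in EAU for both members, and neither passed the threshold of an adjusted p of 0.05. MiR-26a had a log2 ratio of 0.86, 1.13 and 0.63 in naive replicates 1 to 3 and of 0.49, 0.31 and 0.07 in EAU replicates 1 to 3. Every naive sample lay above every EAU sample, with a gap of little more than 0.1 between naive replicate 3 and EAU replicate 1. The difference was -0.58 (SE 0.16; 95% interval -0.99 to -0.17), which is 1.50-fold lower, from 0.87 ± 0.25 to 0.29 ± 0.21 (mean ± SD, n = 3 each; limma, adjusted p = 0.0734).

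MiR-26b had a log2 ratio of 0.71, 0.75 and 0.74 in naive replicates 1 to 3, of 0.48 in EAU replicate 1 and of 0.14 in EAU replicate 3. EAU replicate 2 had no value, because the scanner software marked all 4 of its spots as outliers, and EAU replicate 1 rested on 1 spot. The naive samples stood close together and above both EAU samples. The difference was -0.42 (SE 0.11; 95% interval -0.70 to -0.13), which is 1.34-fold lower, from 0.73 ± 0.02 (n = 3) to 0.31 ± 0.24 (n = 2; limma, adjusted p = 0.0734).

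Over all 595 mouse probes tested, 12.9% passed the threshold, 8.74% lower and 4.2% higher in EAU. The groups did not overlap for 46.6% of the probes, 29.6% with EAU lower, so the lack of overlap of both members is common on these arrays. In size, 11 probes had a lower difference than miR-26a and 24 a lower one than miR-26b. The median difference of all tested probes was -0.01, and that of the 164 tested probes above the blanks on all arrays was 0.0047.

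**Figure D2:**
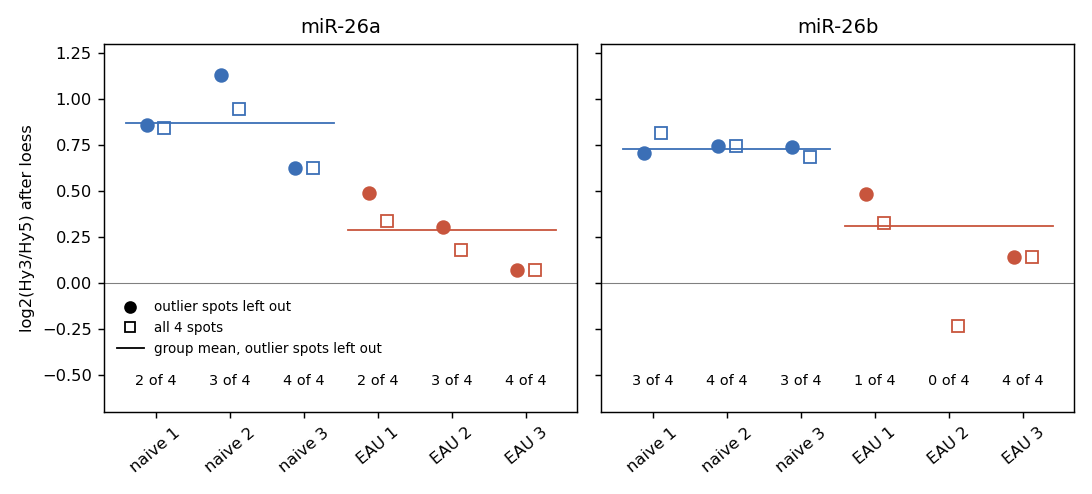
Log2(Hy3/Hy5) of miR-26a and miR-26b on each array after loess, with outlier spots left out (filled circles) and with all 4 spots (open squares); lines are group means of the filled circles and the text gives the spots left out of 4. MiR-26b on EAU replicate 2 has no filled circle because 0 of its 4 spots were left, and lies at -0.23 with all spots.

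The spots of a member differed among themselves in a regular way. Printed in order down the array, the 4 spots of miR-26a averaged log2 ratios of 0.79, 0.66, 0.33 and 0.22 over the 6 arrays, and those of miR-26b 0.86, 0.46, 0.19 and 0.15. The last spot was below the first on every array, by 0.16 (EAU replicate 3) to 1.08 (naive replicate 2) for miR-26a and by 0.30 (EAU replicate 2) to 0.99 (naive replicate 2) for miR-26b. In the reference channel the last spot was 1.38 to 2.57 times as bright as the first for miR-26a and 1.58 to 3.55 times for miR-26b. The step along an array could thus exceed the difference between the groups, and which spots are left out moves a mean.

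At every single position, all 3 EAU arrays lay under all 3 naive arrays. The share of all probes with this pattern at a single position is not given here. As probe means, the groups did not overlap for 46.6% of the tested probes, 29.6% with EAU lower. With no spot left out, the differences at positions 1 to 4 were -0.66, -0.81, -0.52 and -0.44 for miR-26a. They were -0.80, -0.57, -0.64 and -0.66 for miR-26b. The spots of one array share a sample and are not replicates, so these values are given without a test.

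**Figure D3:**
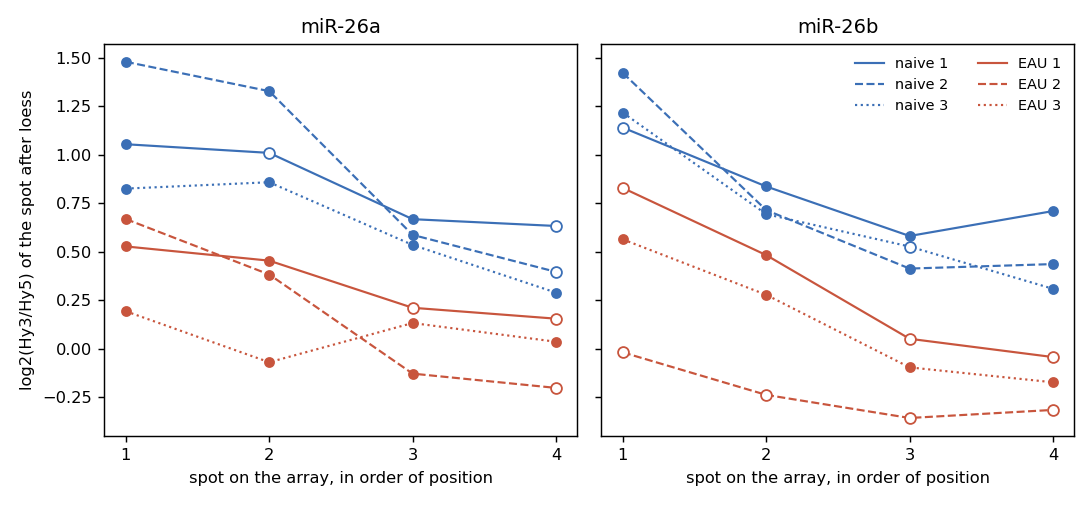
Log2(Hy3/Hy5) of each spot after loess, against its order of position on the array, for miR-26a and miR-26b; each line is 1 array and open circles are spots marked as outliers. The ratio falls from position 1 to position 4, and at each position the EAU arrays lie under the naive arrays.

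Keeping the outlier spots gave every array a value and took both members past the threshold. This setting was added after the flags had been seen. MiR-26a was then at 0.84, 0.95 and 0.63 in naive and 0.34, 0.18 and 0.07 in EAU, a difference of -0.61 (SE 0.10; limma, adjusted p = 0.0244). MiR-26b was at 0.82, 0.75 and 0.69 in naive and 0.33, -0.23 and 0.14 in EAU, a difference of -0.67 (SE 0.15; adjusted p = 0.0398). EAU replicate 2, absent before, was the lowest sample of miR-26b. In this setting 14.2% of the mouse probes passed. Neither call held when EAU replicate 3 (adjusted p = 0.0726 for miR-26a, 0.0974 for miR-26b), naive replicate 1 (0.0851 and 0.112) or naive replicate 2 (0.0721 and 0.123) was left out. The differences in those fits were -0.55, -0.59 and -0.54 for miR-26a and -0.70, -0.64 and -0.67 for miR-26b. The share of all mouse probes called fell in the same fits to 0%, 1.17% and 1.17%. That of miR-26a was also lost without EAU replicate 2 (adjusted p = 0.0502) and that of miR-26b without naive replicate 3 (adjusted p = 0.0852).

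In the sample channel alone, scaled to one distribution by quantiles, both members fell. MiR-26a was at a log2 signal of 9.03, 9.53 and 9.31 in naive and 8.29, 8.10 and 7.70 in EAU. The difference was -1.26 (SE 0.19; adjusted p = 0.0173), or 2.39-fold lower, and 8 of 595 probes had a lower one. MiR-26b was at 10.22, 10.23 and 10.09 in naive and at 9.35 and 9.04 in EAU replicates 1 and 3. The difference was -0.99 (SE 0.11; adjusted p = 0.0133), or 1.98-fold lower, and with the outlier spots kept, EAU replicate 2 stood at 9.34 and the difference was -0.91 (adjusted p = 0.00938). In this channel 10.3% of the probes passed, and 10.9% with outlier spots kept. This value uses no reference signal, so it carries any difference in labelling or hybridisation between arrays that the quantile scaling did not remove.

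The other scalings left both members lower in EAU and mostly short of the threshold. With each array centred on its median, miR-26a differed by -0.72 (adjusted p = 0.233) and miR-26b by -0.38 (adjusted p = 0.595), and the groups overlapped for miR-26b. The probes above the blanks on all arrays had a median difference of 0.38 there, so both members lay far below the bright probes. With each array centred on its U6, 5S and snoRNA probes, miR-26a differed by -0.73 (adjusted p = 0.0919) and miR-26b by -0.21 (adjusted p = 0.987). Loess on spots above the blanks gave -0.49 for each (adjusted p = 0.211 for miR-26a, 0.103 for miR-26b). The groups overlapped for miR-26a there and with the scanner's processed signals. For miR-26b they also overlapped with small RNA centring and with no normalization. The share of probes called with each scaling varied widely, from 0.336% with median centring and 1.85% with loess on spots above the blanks through 4.2% with no normalization (5.19% with outlier spots kept), 7.39% with centring on small RNA probes and 9.21% with the median of all spots to 12.1% from the scanner's processed signals, 15.8% with no background correction and 16.5% with a normexp offset of 10. Testing only probes above the blanks in 3 or more arrays called 24.9% of them, and there both members passed with the same differences (adjusted p = 0.0401 for miR-26a, 0.0446 for miR-26b). In the authors' deposited table of ratios, miR-26a stood at 2.13, 2.45 and 2.13 in naive and 1.76, 1.34 and 1.43 in EAU. There miR-26b stood at 1.69, 1.92 and 2.20 in naive and 1.44, 0.764 and 1.50 in EAU. On the log2 scale of that deposited table the differences were -0.57 for miR-26a (limma, adjusted p = 0.0481) and -0.70 for miR-26b (adjusted p = 0.0569), and 13.9% of its mouse probes passed.

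**Figure D4:**
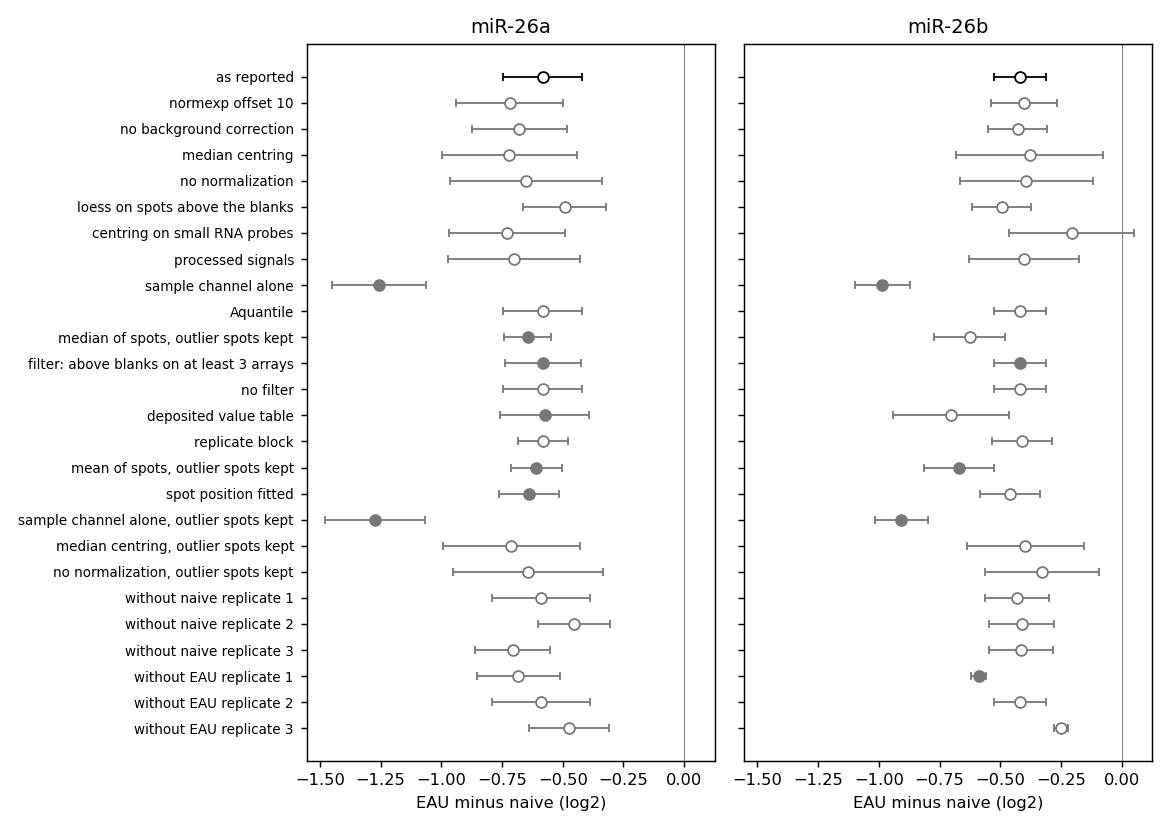
Difference between EAU and naive (log2) of miR-26a and miR-26b, with its standard error, under each processing setting; filled points passed an adjusted p of 0.05. All points lie below 0, from -1.27 to -0.45 for miR-26a and from -0.99 to -0.21 for miR-26b.

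Whether the members changed by different amounts was then compared, array by array, as the log2 ratio of miR-26a minus that of miR-26b. It was 0.15, 0.38 and -0.11 in naive replicates 1 to 3 and 0.01 and -0.07 in EAU replicates 1 and 3. The difference between the groups was -0.17 (p = 0.5 by a two-sided exact permutation test, which with 3 and 2 arrays cannot go below 0.1). With outlier spots kept it was 0.061 (exact permutation test, p = 0.9, n = 3 each), and EAU replicate 2 lay apart from the other arrays at 0.41. With median centring it was -0.55 (exact permutation test, p = 0.2, 3 naive and 2 EAU arrays), over 3 times as large.

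The other strand of the Mir26b hairpin, miR-26b*, was near the blanks. Its signal was 65.7, 232 and 89.1 in naive and 91.3, 77.6 and 105 in EAU. At least 50% of its spots were above the blanks on 1 of 6 arrays, naive replicate 2. The log2 ratio was 0.03, 0.14 and -0.05 in naive and -0.08, -0.08 and -0.06 in EAU, a difference of -0.11 (SE 0.05; limma, adjusted p = 0.172). Unlike at the 5′ arms, its first spot was the brightest, at a mean signal of 235 against 63.4 for the last. The probes named for the human miR-26a-1* and miR-26a-2* had signals of 47.0 to 67.0, under the blank level on every array, so they give no level.

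A probe designed for the human miR-1297, which shares the miR-26 seed, also gave signal in these mouse samples. Its sample signal was 212, 194 and 132 in naive and 114, 223 and 73.9 in EAU, and at least 50% of its spots were above the blanks on all 6 arrays. In the reference channel that held on 4 of 6 arrays, and the signal was 0.95 and 0.83 times the blank level on EAU replicates 1 and 3. The sample signal of EAU replicate 3 was 0.997 times its blank level. The log2 ratio was 0.23, 0.27 and 0.18 in naive and 0.04, 0.02 and 0.04 in EAU, a difference of -0.19. The groups did not overlap, which also held for 46.6% of the tested mouse probes, 29.6% with EAU lower. What this probe captured in mouse RNA was not tested, and since it names no mouse miRNA it was not among the 595 probes of the test.

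In the ratios after loess, the miR-26 members moved in the same direction as 2 other broadly expressed families. Let-7, whose members restrain growth and mark differentiated cells, had 5 of 8 tested probes lower and none higher, with a median difference of -0.27. The probes with the smallest p-values were let-7f (-0.60, adjusted p = 0.00263), miR-98 (-0.22, adjusted p = 0.0149), let-7a (-0.66, adjusted p = 0.0179) and let-7g (-0.33, adjusted p = 0.0205). The miR-30 family had 4 of 5 lower and none higher, with a median of -0.63. They were miR-30e (-0.51), miR-30d (-0.63), miR-30a (-0.75) and miR-30c (-0.57), with adjusted p-values from 0.0149 to 0.0366. Both counts stand against 8.74% of all tested probes lower. That share covers all 595 probes, of which 164 were above the blanks on all arrays. So were 7 of the let-7 and all 5 of the miR-30 probes. Among the 249 probes above the blanks on at least 3 arrays, 37 were lower, and 5 let-7 and 5 miR-30 probes passed. The counts of both families depended on scaling and on single arrays: with median centring no member of either family passed. When naive replicate 1 or EAU replicate 3 was left out, 1 let-7 probe and 0 miR-30 probes passed. Leaving out naive replicate 2 gave 1 of each. In the sample channel alone, 1 let-7 probe and 5 miR-30 probes passed. The summed sample signal of let-7 overlapped between the groups, at 8264 to 9198 in naive and 6215 to 15110.5 in EAU.

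The size of the change was then set beside that of each family, with so few arrays that an exact test cannot go below p = 0.1 and cannot pass the threshold. The family mean of let-7 minus the mean of miR-26 rose by 0.19 in EAU (exact permutation test, two-sided, p = 0.3, 3 naive and 2 EAU arrays, since EAU replicate 2 has no miR-26b value). With outlier spots kept, let-7 changed by 0.30 less than miR-26, at the smallest p that 3 against 3 samples allow (exact permutation test, p = 0.1). In the sample channel alone the same contrast was 0.93 (exact permutation test, p = 0.1, 3 naive and 2 EAU arrays), again the smallest p these numbers allow. Without EAU replicate 3 the contrast in the ratio was 0.064. With median centring, no normalization or small RNA centring, let-7 changed by 0.56 less than miR-26 (exact permutation test, p = 0.1, 3 naive and 2 EAU arrays). These scalings shift all probes of an array alike, so the contrast is the same in each by construction and counts once. The size of the let-7 minus miR-26 contrast thus depended on the scaling. For the miR-30 family the contrast was -0.05 (exact permutation test, p = 0.6, 3 naive and 2 EAU arrays), and with outlier spots kept it was 0.00022 (p = 1, n = 3 each). In the deposited table it was -0.27 (exact permutation test, p = 0.1, n = 3 each) and from the scanner's processed signals -0.24 (exact permutation test, p = 0.1, 3 naive and 2 EAU arrays), both at the smallest p possible.

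**Figure D5:**
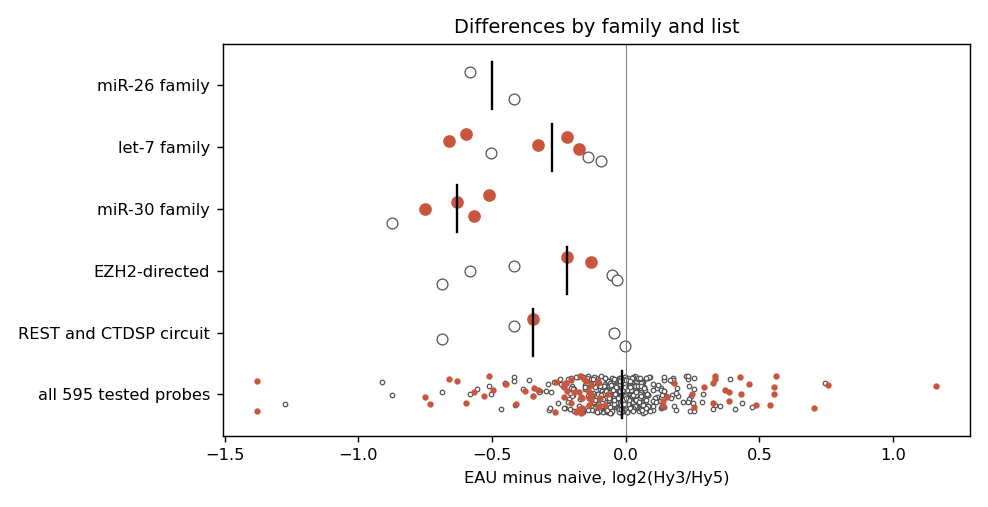
Difference between EAU and naive of the tested probes (log2 ratio), in rows for miR-26, the let-7 and miR-30 families, the EZH2-directed and the REST and CTDSP lists, and all 595 probes; filled points passed an adjusted p of 0.05 and bars are medians. MiR-26a at -0.58 lies within the range of both families, and miR-26b at -0.42 lies within that of let-7 and above every miR-30 member.

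MiRNAs known to act on the same targets were read as lists. The lists are not separate from the family: miR-26a and miR-26b are in the EZH2 list and miR-26b is in the REST list. Their own values enter the medians. Of 7 miRNAs reported to repress EZH2 (miR-26a, miR-26b, miR-101a, miR-101b, miR-138, miR-124 and miR-98), 2 fell, none rose, and the median difference was -0.22, beside 8.74% of all tested probes lower and an overall median of -0.01. They were miR-98 (-0.22, adjusted p = 0.0149), a relative of let-7, and miR-101a (-0.13, adjusted p = 0.0455), whose role in repressing EZH2 is well known. Both differences were smaller in size than those of the miR-26 members. Of 5 miRNAs tied to REST and the Ctdsp phosphatases (miR-9, miR-9*, miR-124, miR-132 and miR-26b), miR-9 fell (-0.35, adjusted p = 0.0211), none rose, and the median was -0.35, beside the same 8.74%. No member of either list passed with median centring, with the replicate number as a block, or when naive replicate 1, naive replicate 2 or EAU replicate 3 was left out. Without naive replicate 3, 1 of the EZH2 list and none of the REST list passed. MiR-9* (-0.04, adjusted p = 0.266) and miR-124 (-0.69, SE 0.67, adjusted p = 0.52; 3 naive and 2 EAU arrays) did not pass. MiR-132 was above the blanks on 0 of 6 arrays. Among the 249 probes above the blanks on at least 3 arrays, 24.9% passed. So did 3 of 6 EZH2-list and 2 of 3 REST-list members there, the miR-26 members included.

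The probes most like each member across the arrays were partly from these families. With outlier spots left out, the highest Pearson correlations with miR-26a over the 6 arrays, among 160 bright mouse probes, were those of let-7g (0.96), miR-200c* (0.95), miR-378 (0.95), let-7i (0.94) and miR-125a-5p (0.93). With outlier spots kept, which gives miR-26b all 6 arrays, the probes most like miR-26b were let-7f (0.999), miR-30a (0.99), let-7d (0.99), miR-96 (0.99) and let-7a (0.98). In that setting miR-26a and miR-26b correlated at 0.89, and miR-26b ranked 26 among the 165 probes compared with miR-26a. All of these values share the arrays, the reference pool and the split between the groups, so they describe a common pattern.

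Markers of some cell types moved between the same samples. The summed sample signal of the 7 leukocyte miRNAs was 537 to 676 in naive and 790 to 1625 in EAU, and of them miR-142-3p rose (0.56, adjusted p = 0.0166), while the other 6 did not pass, beside 4.2% of all tested probes higher. MiR-150, the only member of that list besides miR-223 above the blanks on all 6 arrays, differed by -0.10 (adjusted p = 0.294). That of the 3 photoreceptor miRNAs of the miR-183 cluster was 2793 to 3134 in naive and 495 to 1162 in EAU, and of them miR-183 fell (-1.38, adjusted p = 0.0483; 3 naive and 2 EAU arrays). The neuronal list summed to 44162 to 50063 in naive and 6163 to 17479 in EAU, with 3 of 4 lower. That sum is nearly all miR-124, which did not pass: the other 3 summed to 440 to 694 in naive and 313 to 661 in EAU. Both pigment epithelium members fell. So did both smooth muscle and pericyte miRNAs, miR-145 (-0.45, limma, adjusted p = 0.00702) and miR-143 (-0.27, adjusted p = 0.0291). Their summed signal overlapped, at 406 to 585 in naive and 257 to 580 in EAU. Of 3 erythroid miRNAs, miR-486 fell (-0.23, adjusted p = 0.0463), and miR-451 (0.14) and miR-144 (0.01) did not pass. Neither of the 2 endothelial probes passed, miR-126-3p (-0.06) and miR-126-5p (-0.01). These counts also stand beside 8.74% of all tested probes lower. Of all tested probes, 2 passed with median centring and 8 when EAU replicate 3 was left out. Which of the marker calls held in those settings is not given here. In the leukocyte list, 3 of 7 probes exceeded the blanks on no array. Their part in the miR-26 values was not tested.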

How the data were processed

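The authors deposited one scanner file per array with the intensity of 8720 spots in both channels, which per the file headers come from version 9.1.3.1 of Agilent's Feature Extraction. A second deposited table holds 1972 rows of probes as a linear ratio, whose scale and direction follow Hy3 over Hy5 (median correlation with the processed signals 0.956 over 497 bright probes, 6 arrays); its column medians were 0.769 to 0.886 and its centring is not given in the sources used here. From it, 36 rows above 32 on every array were left out. Mean signals were background-corrected by normexp (offset 50) and then loess was fitted per array, giving control spots a weight of 0 (R 4.3.3, limma 3.58.1). A probe's value is the mean of its spots that the scanner software did not mark as outliers. Mouse probes flagged well above background on at least 3 arrays, with 2 values per group, were tested with lmFit and eBayes (group only, two-sided, Benjamini-Hochberg, threshold 0.05). The background flag changed nothing: 595 of 597 mouse probes were tested with or without it, including probes above the blanks on no array. Single contrasts used exact permutation over samples. The number of arrays limits the precision. Named are the members, other miR-26 and miR-1297 probes, up to 4 tested members per list by p, and the 5 bright probes most correlated with a member; other names were chosen after their values were seen. Members and lists were chosen with earlier results of these data known.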

Additional observations from a re-analysis of the deposited data

How the results depend on the processing

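Both members were lower in EAU in each of 31 alternatives, and the threshold was passed in 9 for miR-26a and 7 for miR-26b. The alternatives are not independent. Aquantile, no filter and the filter on the blanks use the reported ratios, so there the sign could not change. The replicate block uses them too. A further 6 fits left out 1 array with outlier spots left out, and 6 with them kept. MiR-26a passed in the sample channel alone (-1.26; -1.27 with outlier spots kept), with the median of all spots (-0.64), under a filter that kept probes above the blanks in 3 or more arrays (-0.58, with fewer probes tested, 24.9% called and an adjusted p of 0.0401), in the deposited table (-0.57), with outlier spots kept (-0.61) and with spot position fitted (-0.64, 13.9% of probes called). MiR-26b passed in the sample channel alone (-0.99; -0.91 with outlier spots kept), with that filter (-0.42, adjusted p = 0.0446) and with outlier spots kept (-0.67). Leaving out 1 array with outlier spots kept, miR-26a passed without naive replicate 3 (-0.70, 7.04% of probes called) and EAU replicate 1 (-0.68, 13.6%), and miR-26b without EAU replicate 1 (-0.79) and EAU replicate 2 (-0.51, 14.1%). Leaving out 1 array, in either setting, gave -0.71 to -0.45 for miR-26a and -0.79 to -0.25 for miR-26b. MiR-26b passed without EAU replicate 1 (-0.59, adjusted p = 0.00857, 13.3% of probes called) on 1 EAU sample, assumed to vary like the naive ones, and stood at -0.25 without EAU replicate 3 (adjusted p = 0.0606). Settings with outlier spots kept or spot position fitted were added after seeing the data.

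The probes called numbered 77, against 2 with median centring (5 with outlier spots kept), 25 with no normalization (31), 11 with loess on bright spots, 44 with centring on small RNA probes and 8 to 79 without 1 array. With outlier spots kept, leaving out 1 array called 0% (without EAU replicate 3) to 14.1% of probes (without EAU replicate 2). The miR-26a minus miR-26b contrast grew to -0.55 with median centring, no normalization or small RNA centring, and turned to 0.033 with loess on bright spots, 0.13 in the deposited table and 0.061 with outlier spots kept. Median centring, no normalization and small RNA centring differ by a constant per array, so every contrast within arrays is the same in them by construction. The miR-30 contrast turned to 0.0082 with median centring, no normalization or small RNA centring, 0.0034 for loess on bright spots, 0.22 for sample signals without the pool (0.11 with outlier spots kept), 0.0043 with the median of spots, 0.00022 with outlier spots kept and 0.0073 with spot position fitted. It was -0.27 in the deposited table, -0.24 from processed signals and -0.14 to 0.040 without 1 array, turning only without EAU replicate 1. Aquantile leaves ratios as they are. With the replicate block 2 probes were called, and miR-26a was at -0.58 (adjusted p = 0.0981) and miR-26b at -0.41 (adjusted p = 0.187). Same-numbered samples deviated with correlations of 0.19, -0.15 and 0.29. The best match had the same number for replicates 1 and 3 and another for replicate 2. The labels do not say whether same-numbered samples were paired, and these correlations cannot decide it. The contrasts between members and families were not run with the block or the filters, and miR-26b* has no value under the stricter filter.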

Other observations

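The fall of the ratio along the spots of miR-26a and miR-26b was general on these arrays. Over 505 probes with 4 spots and signal above the blanks on all arrays, the last spot was brighter than the first in the reference channel for 408, with a median log2 difference of 0.55, and in the sample channel for 350, with a median of 0.16. The log2 ratio of the last spot minus that of the first had a median of -0.44 and was above 0 for 68 of the 505. Outlier spots made up 1.13% to 3.85% of the spots of an array outside controls, with the highest share on EAU replicate 2, where miR-26b lost all 4.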
